A study of Drosophila melanogaster with 3 samples.

Results

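Autosomal intergenic Slou peaks are binding regions of the Drosophila homeodomain protein Slouch. Their summits lie between genes, more than 500 bp from protein-coding start sites, and off the X chromosome. They were taken from the authors' optimal peak list on the dm6 build by 3 criteria. The peak was not on X, its summit lay outside every annotated gene of any biotype except transposable elements, and the summit was more than 500 bp from the transcription start site (TSS) of every protein-coding transcript. The optimal list held 2245 peaks off X and 498 on X. Of these, 268 met the criteria, which is 11.9% of those off X and 9.77% of the list. They comprised 84 peaks on 2L, 76 on 3L, 60 on 2R, 45 on 3R and 3 on chromosome 4.

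The data are chromatin immunoprecipitation and sequencing (ChIP-seq) of whole embryos of mixed sex, collected from 0 to 24 h, in 3 biological replicates that form 1 group. All embryos came from 1 transgenic strain, slou-GFP, which stably expresses Slou with GFP at its C-terminus, and an anti-GFP antibody was used. A whole-embryo preparation cannot tell the few cell types that express Slou apart, and the labels do not name the promoter that drives the fusion protein. No control library or untagged strain is among the samples, so conditions were not compared, and sequencing depth is unknown because the files hold no read counts. The comparison available was with 5780 peaks of the pooled list of 30000 that met the same criteria but were not in the optimal list, called non-optimal here.

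Slouch (slou, also S59) belongs to the NK class of homeodomain proteins. In the embryo it is known as an identity factor, made by particular muscle founder cells and by some neurons, where it helps to set which muscle or nerve cell forms. Homeodomain proteins commonly bind short A/T-rich cores such as TAATTA and TAATTG, and enhancers that such factors use often lie in introns or in the gaps between genes.

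The 50 bp on each side of the summit are shown first for the 6 highest-scoring of these peaks on 2L, 3L, 3R and 4, because they carry the highest authors' scores among the windows printed. Windows of the remaining arm are not printed, so 3 of the 9 highest-scoring members are missing here. Sequences are from the RefSeq Release 6 genome (dm6 coordinates), plus strand. Capitals mark, on either strand, any of 9 short motifs that were searched, among them TAATTA and TAATTG, and the 6-mer GCGCCA. The other motifs are named with their counts. None of the 9 motifs occurred in these 6 windows, and GCGCCA occurred in the last of them. This is not true of all the strongest peaks, since the fourth and the sixth by score, not printed, each hold TAATTG.
RFeSP to chinmo, chr2L:1638728-1638828: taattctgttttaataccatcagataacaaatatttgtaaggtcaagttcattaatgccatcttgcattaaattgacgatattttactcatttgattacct
C15 to sp3, chr3R:21520330-21520430: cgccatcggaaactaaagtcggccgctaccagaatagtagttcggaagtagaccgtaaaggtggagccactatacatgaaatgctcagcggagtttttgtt
Cyt-c1L to eEF1gamma, chr3R:29214404-29214504: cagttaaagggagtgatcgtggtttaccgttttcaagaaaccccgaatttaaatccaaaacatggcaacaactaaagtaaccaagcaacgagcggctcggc
NijA to CG43245, chr3L:10739836-10739936: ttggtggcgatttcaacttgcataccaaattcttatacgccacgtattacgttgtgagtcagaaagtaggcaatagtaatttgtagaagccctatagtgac
dpr17 to CG4702, chr3R:12121296-12121396: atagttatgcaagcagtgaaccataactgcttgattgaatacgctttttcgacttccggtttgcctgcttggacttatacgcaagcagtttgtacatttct
jp to brwl, chr2L:9567467-9567567: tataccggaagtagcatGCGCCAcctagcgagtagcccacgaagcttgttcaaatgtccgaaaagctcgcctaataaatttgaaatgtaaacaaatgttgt

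The next 4 windows are the highest-scoring on the same arms that hold the homeodomain core TAATTA, shown so that its place near the summit can be seen. They are not the strongest with this core, since the member that is the twelfth by score (397, pooled rank 120) holds it too and is not printed, whereas the first shown here has pooled rank 611.
noc to CG33648, chr2L:14502729-14502829: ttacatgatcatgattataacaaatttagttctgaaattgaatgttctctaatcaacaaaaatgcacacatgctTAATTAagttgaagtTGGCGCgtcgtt
robl37BC to CG15172, chr2L:19014799-19014899: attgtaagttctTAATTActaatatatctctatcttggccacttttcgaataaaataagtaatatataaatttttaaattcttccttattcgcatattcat
bdl to Atet, chr2L:4333069-4333169: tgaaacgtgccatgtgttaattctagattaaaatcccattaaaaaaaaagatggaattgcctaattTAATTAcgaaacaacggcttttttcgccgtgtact
CG5151 to CG33796, chr3L:16165778-16165878: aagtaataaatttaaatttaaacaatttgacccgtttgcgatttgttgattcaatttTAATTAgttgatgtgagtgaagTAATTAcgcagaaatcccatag

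A further set holds AGGTGGCGC on either strand, a 9-base form that contains GCGCCA in reverse complement. It was chosen after the values were seen. The jp to brwl window above is one of this set, and the 4 others on these arms follow.
soti to cv-c, chr3R:14391393-14391493: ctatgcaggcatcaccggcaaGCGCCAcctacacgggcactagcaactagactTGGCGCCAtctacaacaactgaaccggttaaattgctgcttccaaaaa
osp to CG15282, chr2L:14706323-14706423: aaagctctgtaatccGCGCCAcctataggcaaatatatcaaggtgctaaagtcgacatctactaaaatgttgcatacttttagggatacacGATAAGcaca
CG31191 to Atpalpha, chr3R:20948112-20948212: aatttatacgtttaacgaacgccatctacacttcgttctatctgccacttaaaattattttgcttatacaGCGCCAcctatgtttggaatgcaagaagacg
CadN to CadN2, chr2L:17784768-17784868: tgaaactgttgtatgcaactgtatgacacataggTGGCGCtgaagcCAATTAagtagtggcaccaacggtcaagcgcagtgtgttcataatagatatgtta

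The 3 strongest of these peaks lay in the gaps of Su(z)2 and CG13323, of RFeSP and chinmo, and of C15 and sp3. The score is the authors' own value, its scale is not stated, and it serves only to rank peaks within a list. The highest-scoring peak was chr2R:13035196-13035463, between Su(z)2, a paralogue of the Polycomb-group gene Psc, and CG13323. Its summit was 27427 bp from Su(z)2 and 9357 bp from CG13323. Its score was 699, its rank in the pooled list was 26, and its best overlapping peak ranked 16, 33 and 25 in replicates 1, 2 and 3. The second was chr2L:1638607-1638942, with its summit 12480 bp upstream of chinmo, which encodes a BTB zinc-finger protein that sets temporal identity in neurons. It had a score of 641, pooled rank 34 and replicate ranks 32, 34 and 34. The third was chr3R:21520236-21520502, in the gap between C15, an NK-type homeobox gene used in leg patterning, and sp3. Its summit was 7566 bp from C15 and 548 bp upstream of the sp3 TSS. It scored 590, ranked 44 in the pooled list and ranked 62, 36 and 42 in the replicates. All 3 peaks were thus among the 62 highest in every replicate.

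The other peaks of the 15 highest-scoring fell beside genes of mixed function. Of the 15, TAATTA was in 1 (the peak scoring 397 beside Psc) and TAATTG in 3 (the fourth, the sixth and the peak scoring 409 beside Psc). The fourth, with score 503 and rank 61, lay 648 bp upstream of CG14762 in the gap that ends at Optix, a Six-family homeobox gene of eye development. The fifth (score 472) was in the gap of Cyt-c1L and eEF1gamma, a subunit of translation elongation factor 1, and the sixth (463) between blw, which encodes a subunit of the mitochondrial ATP synthase, and CycB, which encodes Cyclin B. The seventh (436) lay 32039 bp from the nearest protein-coding TSS in the NijA to CG43245 gap, and the eighth (431) between dpr17, an immunoglobulin-family gene, and CG4702. The ninth (423) lay 767 bp upstream of jp, the junctophilin gene. The chinmo gap held 2 more of the 15, with scores of 415 and 385. Psc had 1 on each side, with scores of 409 and 397. The remaining 2 lay between CG9452 and the cuticle protein gene Cpr76Ba (397) and upstream of tara (383), a gene known from work on cell fate and sleep.

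Scores of the 268 peaks ran from 92.2 to 699 with a median of 126, and pooled ranks from 26 to 2731 with a median of 1604. The non-optimal peaks had scores of 28.1 to 91.7 (median 36.1) and ranks from 2757. The optimal list is a cut on this score, so the separation is set by the choice. Just inside it, the 3 lowest-scoring members had scores of 92.6, 92.4 and 92.2, in the gaps of CG3008 and CG15625, Su(z)2 and CG13323, and CG13334 and CG42807. Just outside it were peaks scoring 91.7 between SERCA, the calcium pump gene, and CG3735, 91.6 between slou itself and CG15498, and 91.6 between ds, an atypical cadherin gene, and Hsp60B. For the TSS distance, the 3 nearest members lay 501, 502 and 515 bp from the TSSs of CG15172, Fatp3 and CG3348. The 3 optimal peaks just under the limit lay 498, 494 and 486 bp from those of CG42808, PHDP and CG10479. The deposited interval was 390 bp wide for 240 of the 268, and for all 5780 non-optimal peaks, and the shortest was 98 bp. The deposited −log10 q was at the list's highest value, 3.03, for 135 members (50.4%). Only 2 members (0.746%) lay in an annotated transposable element, against 128 non-optimal peaks (2.21%).

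Every replicate matched over 70% of the members. A member was matched in a replicate when it overlapped, by at least 1 bp, one of that replicate's highest-scoring peaks, taken to the same number as the optimal list holds. Replicate 1 matched 193 members (72.0%, 95% Wilson interval 66.4 to 77.0%). Replicate 2 matched 215 (80.2%, 75 to 84.6%) and replicate 3 matched 222 (82.8%, 77.9 to 86.9%). The mean was 78.4% ± 5.65 (SD, n = 3), and the intervals cover counting error over peaks only. In all, 140 members (52.2%) were matched in all 3 replicates, 85 in exactly 2, 40 in 1 and 3 in none. Non-optimal peaks were matched in 1.51%, 1.70% and 1.76% of cases. The pooled list was called on the same 3 replicates, so overlap is built in and these shares are a description. Of the 67 members with the highest scores, 65 were matched in all 3 replicates. In the following groups of 67, by falling score, it was 55, 16 and 4. The limit on replicate rank is the length of the optimal list itself, so a member near the end of that list loses its match by a small shift in rank, and this fall is set in part by the limit. With replicate lists of 2 times the length, a comparison added after the data were seen, the numbers were 67, 65, 56 and 42. The ratio of a member's worst to its best replicate rank, which needs no limit, had medians of 2.14, 1.93, 2.35 and 2.47 in the 4 groups, and their quartile ranges overlapped. In the last group 63 members had a rank in every replicate and entered that median. Replicate 1 alone missed 45 members, replicate 2 alone 28 and replicate 3 alone 12.

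**Figure D1:**
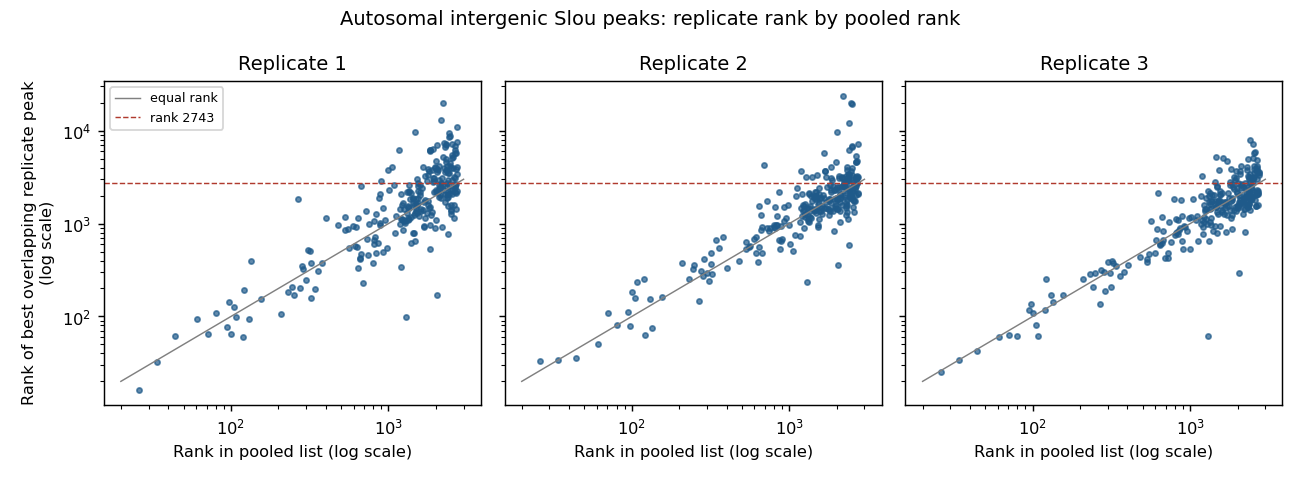
Rank of each member in the pooled list (x axis, log scale) against the rank of its best overlapping peak in replicates 1, 2 and 3 (y axis, log scale), 1 point per member; the grey line is equal rank and the dashed line is the lowest rank that counts as a match. Points lie on both sides of the line along the list, and more of them are above the dashed line in replicate 1, where 193 of 268 were matched, than in replicate 3, where 222 were.

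Single members disagreed strongly between replicates. The widest spread was at chr2R:23617960-23618349, upstream of Eglp2, a gene for a channel protein of the entomoglyceroporin family, where the ranks were 910, 23776 and 1822. A peak beside noc, a zinc-finger gene of eye and brain development, chr2L:14504992-14505381, ranked 231, 4265 and 425. The member farthest from any protein-coding TSS, between kek1 and ACXC, ranked 1391, 19171 and 3085. The peak upstream of LanB2, a laminin chain gene, ranked 20002, 2233 and 1452, and the one between CG13970 and CG10651 ranked 1857, 148 and 136. In the first 3 of these replicate 2 was the low one, and in the last 2 it was replicate 1. Every member had some overlapping peak in the full 30000-peak lists of replicates 2 and 3. In replicate 1 there was none for 4 members, which lay near CG3348, Ssadh, yip3 and sim, and their pooled ranks ran from 2283 to 2562.

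The members were spread over 202 gaps between protein-coding genes. A single member was found in 168 of them, 2 members in 18 gaps, and 3 or more in 16 gaps that together held 64 members. The gap from RFeSP, a respiratory chain subunit gene, to chinmo is 37097 bp long and held 7 members and 18 non-optimal peaks, so that 28.0% of its peaks were optimal. From left to right these lay 18692, 20165, 24618, 29292, 34633, 35311 and 36022 bp from RFeSP. Their pooled ranks in that order were 105, 641, 34, 130, 1467, 2101 and 2277. The 4 members farther from the chinmo TSS thus had the higher scores, and the 3 closest to it had ranks of 1467 and beyond. The gap of CG6168 and CG6163 (40266 bp) also held 7, beside 25 non-optimal peaks (21.9% optimal), with scores from 99.3 to 304. Of these, 5 lay within the stretch from 27646 to 31460 bp from CG6168. The gaps of CG44362 and CG7560 and of scyl, a growth inhibitor gene, and Dyro held 5 each, with highest scores of 171 and 144, and 31.2% and 27.8% of their peaks were optimal. Across the 16 gaps the optimal share was 9.09 to 66.7%, against 4.43% over all peaks that met the criteria. These gaps were picked for their number of members, so a share above the overall value is built in, and long gaps hold many peaks of either kind.

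The gaps beside Psc, Su(z)2 and RYBP also held several members. Psc, a subunit of Polycomb repressive complex 1, flanked 5 members, 3 in its gap with CG13321 and 2 in its gap with CG33798. The 3 in the CG13321 gap had pooled ranks 108, 1291 and 529, and the 2 in the CG33798 gap had 120 and 1364. Of the peaks in these gaps 37.5% and 25% were optimal. Su(z)2, its neighbouring paralogue, had 3 members in the gap to CG13323, with scores of 92.4, 699 and 108, so that the highest-scoring of all members had lower-scoring ones on each side, and 16.7% of the gap's peaks were optimal. RYBP, which encodes another protein of Polycomb complexes, had 4 members in the gap to Ppa, scoring 100, 143, 128 and 146, beside 2 non-optimal peaks (66.7% optimal). These 3 genes were put together after the gaps were ranked, from no list and with no test. Genes outside this group flanked as many members or more over 2 gaps. CG6168 had 7 in its gap with CG6163 and 1 in its gap with CG7573. The gene noc had 4 in its gap with CG33648 and 2 in its gap with CG15283. Gaps with 4 members were also those of NijA and CG43245, noc and CG33648, and robl37BC and CG15172. Gaps with 3 were also those of mtSSB and tara (highest score 383), Ids and sty (139), hry and SrpRbeta (133), 18w and CG11041 (120), NimC3 and hll (119), and plh and corto (106).

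Members of 1 gap are not independent of each other. Overlapping members were found 5 times, and each such pair took the same peak as its best match in every replicate. In the CG6168 gap, for example, the peaks with pooled ranks 250 and 2030 both matched the peaks ranked 169, 354 and 295. Merging overlapping members left 263, of which 51.7% were matched in all 3 replicates. An optimal summit other than the member's own lay within 1 kb of 39 members, within 2 kb of 65 and within 5 kb of 102.

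**Figure D2:**
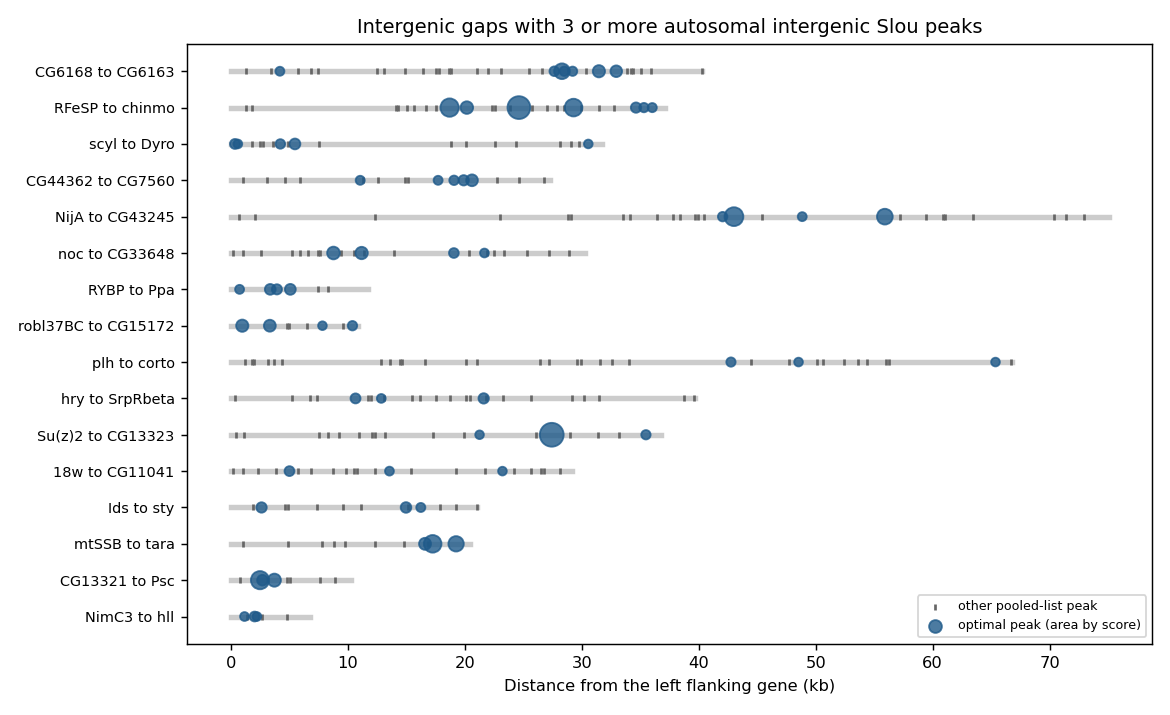
The 16 gaps between protein-coding genes that held 3 or more members, each drawn as a grey bar from its left flanking gene (x axis, distance in kb); blue discs are members, with area proportional to score, and ticks are non-optimal pooled-list peaks. The gaps of CG6168 and of RFeSP hold 7 members each, and the discs for scores of 641 (chinmo) and 699 (Su(z)2) are the largest.

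Members lay nearer to promoters than non-optimal peaks did, within the range that the 500 bp limit allowed. Their distance to the nearest protein-coding TSS ran from 501 to 44813 bp, with a median of 3780 bp and quartiles of 1563 and 9009 bp. The median of the non-optimal peaks was 5097 bp. Summits within 2 kb of a TSS made up 92 members (34.3%) and 1311 non-optimal peaks (22.7%), an odds ratio of 1.78 (two-sided Fisher's exact test over peaks, p = 2.22e-05, Benjamini-Hochberg adjusted p = 0.000200 over 9 position features). Against the 868 non-optimal peaks from the 5000 highest-scoring rows, the odds ratio was 1.42 and the adjusted p was 0.186, so the difference did not pass the threshold against these higher-scoring peaks. Under the other alternatives it was 1.68 to 2.03 with adjusted p from 0.000104 to 0.0127. Distances over 10 kb were found for 60 members (22.4%) and 28.1% of non-optimal peaks, and 15 members lay over 20 kb away. The 3 farthest were 44813, 35673 and 33006 bp from the TSSs of ACXC, CG31797 and CG43245. Peaks, not libraries, are the units of this and all following tests, and neighbouring peaks are not independent.

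**Figure D3:**
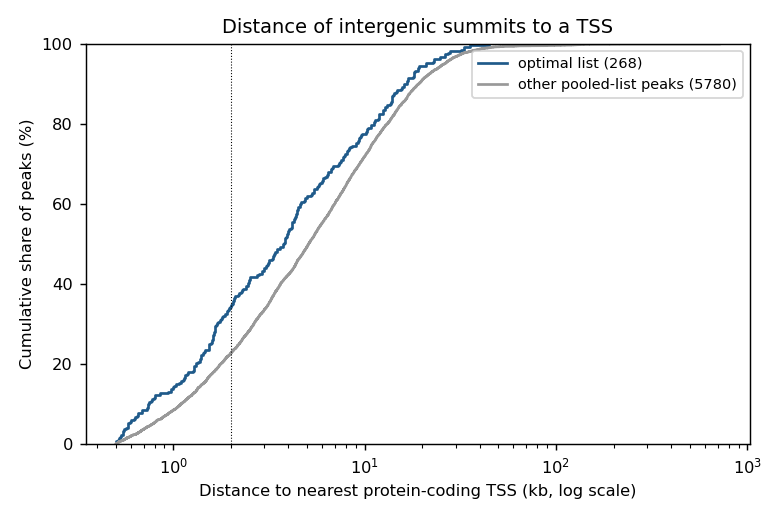
Cumulative share of peaks (y axis, percent) by distance from the summit to the nearest protein-coding TSS (x axis, kb, log scale) for the 268 members and the 5780 non-optimal peaks; the dotted line is 2 kb. The members' curve is the upper one at 2 kb, at 34.3% against 22.7%.

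No difference in the layout of the gap passed the test. The summit was upstream of the nearest TSS for 163 members (60.8%) and for 61.8% of non-optimal peaks. Divergent gaps, where both flanking genes are transcribed away from the gap, held 84 members (31.3%, against 28.4% of non-optimal peaks). Tandem gaps held 123 (45.9% against 49.7%) and convergent gaps 61 (22.8% against 21.7%). None of the 3 layouts passed Fisher's exact test (odds ratios 1.15, 0.858 and 1.06, adjusted p = 0.539, 0.529 and 0.731). None of the 5 chromosome arms did either, with odds ratios of 0.787 to 1.19 and adjusted p of at least 0.529. The median gap was 13793 bp for members and 19794 bp for non-optimal peaks. The nearest gene of any biotype was a noncoding RNA gene for 92 members and a tRNA gene for 5, together 36.2% against 33.6% of non-optimal peaks. In 23 cases the summit lay within 500 bp of the TSS of such a gene, which the criteria allow.

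The genes beside the members were counted by lists of known function, which were chosen with earlier results of these data known and were not tested as sets. In all, 376 of 2951 protein-coding genes (12.7%) that flank any peak meeting the criteria flank a member, and this share is the background for each list. A gene beside many peaks has more occasions to flank a member, and the number of peaks beside each gene was not taken into account. Over the 16 lists, 34 of 122 such genes (27.9%) flanked a member. A list gene stood on either side of 43 members (16.0%) and of 11.4% of non-optimal peaks. Flanking says nothing of which gene a region acts on.

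Among muscle and mesoderm genes, 2 of 15 muscle identity factors flanked a member. They were mid, a T-box gene, and tup, an Islet-type homeobox gene, whose best peaks had scores of 153 and 143. Of 12 genes on the mesoderm and heart list 5 did. These were bin, a Forkhead factor of the visceral mesoderm (score 272, replicate ranks 157, 478 and 396), the T-box genes H15 (153), Doc1 and Doc2 (both 141), and zfh2 (135). The gene zfh2 was counted because the list holds it, and its role in mesoderm or heart was not examined. H15 and mid flank the same member, as do Doc1 and Doc2. Of 10 NK-type homeobox genes C15 flanked one. The myoblast fusion list had 1 of 4, hbs, a cell adhesion receptor of myoblasts (126). The sarcomere list had 1 of 8, TpnC47D, a troponin C gene (93.2). The shares were 13.3%, 41.7%, 10%, 25% and 12.5%, and lists this short allow wide variation. With only the gene of the nearest TSS counted, the numbers of genes in these lists, in the same order, were 1, 4, 0, 0 and 1. The member beside hbs, for example, lay 12164 bp from it and 1943 bp from the TSS of CG33467.

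Of 11 genes of the EGF and FGF receptor pathways 6 flanked a member (54.5%). These were sty, the feedback inhibitor Sprouty, with 3 members (best score 139, replicate ranks 2179, 1203 and 657), the ETS repressor gene aop (137), the ligand gene vn (133), S, which encodes the ligand-trafficking protein Star (126), and the FGF ligand genes ths and pyr, which share 1 member (103). With only the gene of the nearest TSS counted, 2 of the 6 remained. Of 11 Wingless and Hedgehog pathway genes 4 did, namely the ligand genes wg and Wnt4, which share a member (score 159, ranks 2274, 604 and 1179), and the receptor genes fz (128) and ptc (111). By the nearest TSS alone 3 of these 4 were counted, so the order of the 2 lists turned. The Notch list had 1 of 9, pros (103), and the Dpp list had 0 of 2. Counted by the nearest TSS, both lists had 0.

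Of 12 segmentation genes 6 flanked a member (50%). The Forkhead genes slp1 and slp2 share a member with a score of 323 and ranks of 105, 372 and 253. The others were the head gap gene ems (146), the pair-rule genes hry with 3 members (best score 133) and odd (126), and the gap gene kni (114). Of the 11 Hox genes and cofactors tsh (142) and hth (138) did. Of 8 neuroblast and temporal factors 3 did, SoxN (132), nub (110) and pros (103), and of 4 neuronal differentiation genes none. The glial list had 1 of 4, nrv2, a sodium pump subunit gene (pooled rank 2341). The ecdysone cascade had 1 of 7, Blimp-1 (129), and the chromatin list had 1 of 3, Psc (409). With only the nearest TSS counted, 3 of the 6 segmentation genes remained. By that count the Hox list had 1, the neuroblast list 1, the glial list 0, the ecdysone list 1 and the chromatin list 1.

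The summits of the members were A/T-rich against their own surroundings. The median A/T share of the window of 50 bp each side of the summit was 66.3%, while that of the windows centred 500 bp to the left and right was 57.9% and 57.4%. Windows of at least 65% A/T made up 156 of the 268 (58.2%) at the summit, 25.7% on the left and 26.1% on the right. The summit windows differed from both (two-sided exact McNemar test, adjusted p = 5.00e-11 and 6.14e-10). Among non-optimal peaks 33.6% of summit windows were A/T-rich, with an odds ratio of 2.75 (Fisher's exact test, adjusted p = 9.64e-15). Against the 868 higher-scoring non-optimal peaks the odds ratio was 1.57 (Fisher's exact test, adjusted p = 0.0163).

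The homeodomain cores did not follow the A/T share. TAATTA occurred within 50 bp of the summit in 17 members (6.34%) and 8.41% of non-optimal peaks, an odds ratio of 0.738 (Fisher's exact test, adjusted p = 0.862). It occurred in 6.72% of the left and of the right windows (exact McNemar test, adjusted p = 1.00 for each). At equal A/T share the Mantel-Haenszel odds ratio was 0.512 (95% interval 0.309 to 0.847), which did not pass the threshold after adjustment over the 9 motifs. TAATTG occurred in 28 members (10.4%) and 11.1% of non-optimal peaks (odds ratio 0.935, Fisher's exact test, adjusted p = 1.00), and in 8.96% and 10.1% of side windows. Searched on both strands, either core was present in 45 members (16.8%) and 18.5% of non-optimal peaks. None of the 9 motifs passed by Fisher's exact test, at unadjusted p from 0.115 to 1.00 and odds ratios of 0.588 to 1.62. Of the other 7, the motif CAAGTG of NK-2 type proteins was in 15 members (5.60%, against 6.82% of non-optimal peaks). The run GAGAGA bound by GAGA factor was in 8 members (2.99%, 3.34%). The word CAGGTA of the early activator Zelda was in 6 members (2.24%, 2.01%). The word TATCGA of the promoter factors DREF and BEAF-32 was in 10 members (3.73%, 3.62%). The E-box CACGTG was in 2 members (0.746%, 1.26%). The E-box CATATG was in 14 members (5.22%, 3.29%). The word GATAAG of factors of the GATA family was in 10 members (3.73%, 3.84%). A comparison added after the data were seen set the members against optimal peaks in autosomal introns and promoters. TAATTA was present in 11.6% of 605 intron peaks (odds ratio 0.518) and in 11.4% of 1312 promoter peaks (0.529), both with an adjusted p of 0.0389 by Fisher's exact test over 6 comparisons. By the same exact test, A/T-rich windows made up 69.6% of the intron peaks (odds ratio 0.609, adjusted p = 0.00872) and 62.7% of the promoter peaks (0.830, adjusted p = 0.285). The TAATTA calls were lost in every subset of the optimal peaks tried, and the A/T call against intron peaks in all but 1. Leaving out 1 replicate meant keeping the members matched in both others, without calling peaks again. The lowest adjusted p for TAATTA in these subsets was 0.102 by the same exact test. The TAATTA odds ratios there were 0.494 to 0.583 against intron peaks and 0.449 to 0.582 against promoter peaks. Among higher-scoring peaks they were 0.726 and 0.586 (exact test, adjusted p = 0.635 and 0.329). The A/T-rich odds ratio against intron peaks was 0.552 without replicate 1 (exact test, adjusted p = 0.0122), 0.734 without replicate 2 (0.231), 0.590 without replicate 3 (0.0692) and 0.533 among higher-scoring peaks (0.0680).

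A scan of all 2080 strand-merged 6-mers, also added after the data were seen, was led by a G/C-rich word. Against non-optimal peaks, 27 of the 6-mers (1.30%) were more frequent at the members and 10 (0.481%) less frequent (two-sided Fisher's exact test, adjusted over 2080). The scan against the side windows used the same test, which ignores that a summit and its side windows belong together. Against them, 35 (1.68%) were more and 26 (1.25%) less frequent. In the same direction against both non-optimal peaks and side windows, 17 and 5 were called. Of the 27, 9 were made of A and T alone, and only GCGCCA and the overlapping AGCGCC had 4 or more G or C. GCGCCA had the smallest p. It was within 50 bp of the summit in 27 members (10.1%, interval 7.02 to 14.3%) and in 201 non-optimal peaks (3.48%, 3.04 to 3.98%), an odds ratio of 3.11 (Fisher's exact test, p = 2.26e-06, adjusted p = 0.00470). Against the side windows its adjusted p was 0.0224 (Fisher's exact test, which ignores that a summit and its side windows belong together), with shares of 3.36% on the left and 3.73% on the right. By the exact McNemar test, which keeps this pairing, p was 0.00210 on the left and 0.00599 on the right. Those 2 values are not adjusted over the 2080 6-mers. The word was picked as the leading one of 2080, and its interval at equal A/T share makes no allowance for that choice. The odds ratio of GCGCCA was 5.68 (3.61 to 8.91) at equal A/T share and 3.78 against the 868 higher-scoring non-optimal peaks (Fisher's exact test, adjusted p = 0.0121). Among members matched in both other replicates it was 3.18 without replicate 1, 2.92 without replicate 2 and 2.82 without replicate 3, with adjusted p = 0.0372, 0.0610 and 0.124 by the exact test, so the call was lost in the last 2. The counts of more frequent 6-mers under those subsets were 14, 2 and 0, and that against the 868 higher-scoring non-optimal peaks was 1.

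**Figure D4:**
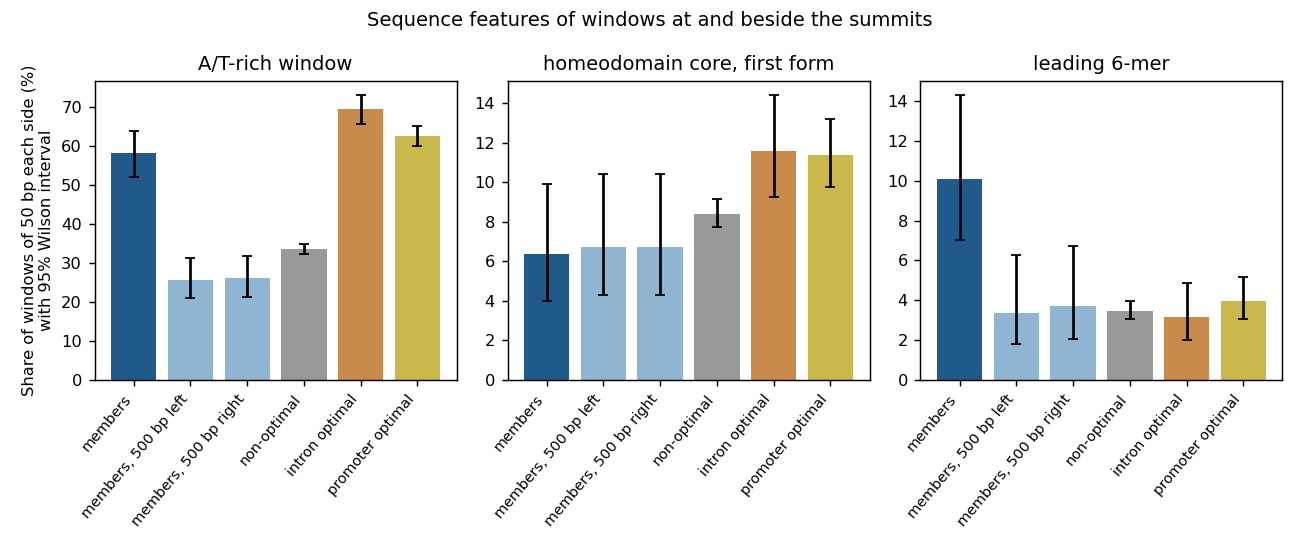
Share of windows of 50 bp each side of a point (y axis, percent, with 95% Wilson intervals) that are at least 65% A/T, that hold the first homeodomain core named above, and that hold the 6-mer with the smallest p, for member summits, the windows 500 bp to each side, non-optimal peaks, and autosomal intron and promoter optimal peaks. The A/T-rich share of members (58.2%) is above its side windows and below intron peaks (69.6%), and the leading 6-mer is at 10.1% in members and under 4% elsewhere.

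The GCGCCA windows came from high and low ranks alike. Their median A/T share was 59.4%, their median pooled rank was 1478, and they lay in 27 different gaps. In optimal peaks of other positions GCGCCA was found in 3.14% of intron windows (interval 2.02 to 4.85%) and 3.96% of promoter windows (3.04 to 5.16%). The word was chosen for its frequency in the members, so these shares are given without a test. It was present in 15 of the 134 higher-scoring members (11.2%) and in 12 of the 134 lower-scoring (8.96%). It was present in 14 of the 92 members within 2 kb of a TSS (15.2%) and in 13 of the 176 others (7.39%). Of the 67 highest-scoring members 7 held it, among them the fourth and ninth by score, beside CG14762 and jp. The others lay in the gaps of CG8519 and ple, Sox21a and Sox21b, ed and Sr-CIII, noc and CG33648, and soti and cv-c. Of the 27, 13 were matched in all 3 replicates. The 9-base form AGGTGGCGC shown in the windows above is known as the core of the binding motif of the insulator protein CTCF. This form contains GCGCCA in reverse complement and was chosen after the values were seen. A higher share in members is thus built in to a part, and its shares are given without a test. The 9-base form was present in 7 members (2.61%, interval 1.27 to 5.29%) and in 8 of 5780 non-optimal peaks (0.138%, 0.0702 to 0.273%). It was in 0 of the left windows, which allows up to 1.12% of them by a floor of 3 counts (Wilson upper limit 1.41%), 2 of the right windows, 5 of 605 intron and 4 of 1312 promoter peaks. A match is a run of letters, and no data on CTCF were analysed here.

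Intergenic members ranked lower than promoter peaks, and their difference from intron peaks did not pass the test. In the upper 50% of the optimal list by score were 104 members (38.8%), against 43.0% of 605 autosomal intron peaks and 55.3% of 1312 autosomal promoter peaks. The odds ratio against promoter peaks was 0.512 (two-sided Fisher's exact test, p = 8.66e-07, adjusted p = 3.46e-06) and that against intron peaks was 0.841 (adjusted p = 0.353). The shares matched in all 3 replicates were 52.2% of members, 53.6% of intron peaks (odds ratio 0.949, adjusted p = 0.769) and 65.5% of promoter peaks (0.577, adjusted p = 0.000107), by the same exact test. Matching is a limit on replicate rank, and the pooled list was called on the same 3 replicates. The matched shares therefore follow the ranks and are not a separate result. The median scores were 126, 127 and 145, and the highest scores were 699, 1515 and 1515. Under the criteria for intergenic position, 268 of 6048 pooled-list peaks (4.43%) were optimal, compared with 9.14% of the whole list.

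**Figure D5:**
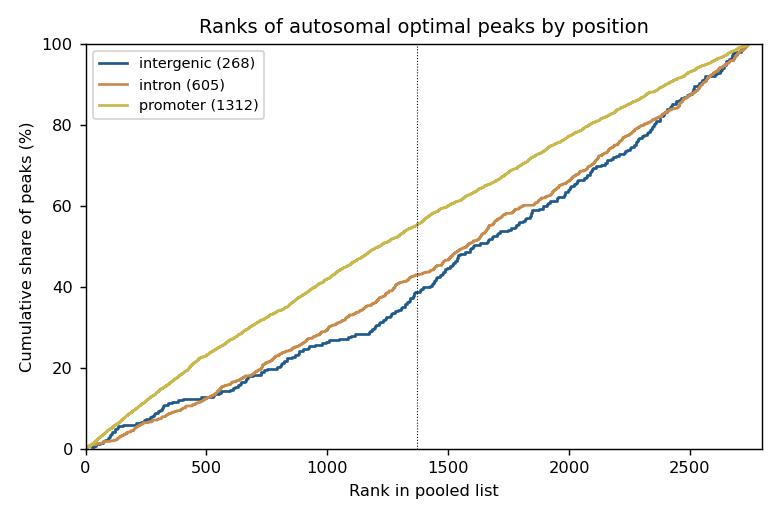
Cumulative share of autosomal optimal peaks (y axis, percent) by rank in the pooled list (x axis) for 268 intergenic, 605 intron and 1312 promoter peaks; the dotted line marks the upper 50% of the optimal list. At that line the curves stand at 38.8%, 43.0% and 55.3%.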

How the data were processed

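Per the deposited README files, the authors called peaks with a control alignment in each replicate and on the pooled replicates, and derived an optimal list. The aligner and the caller: not given in the sources used here. Each peak's deposited score and −log10 q are the authors' values and served only to rank and describe peaks. Depth is unknown, so the intervals cover counting error over peaks. Only the dm6 lists were used. Gene models were Ensembl release 115 (BDGP 6.54), matched to 253 of 254 list symbols, and sequence was RefSeq Release 6. The summit is the deposited offset, coordinates are 1-based, and flanking genes are the nearest protein-coding gene bodies. Tests were Fisher's exact, exact McNemar and Mantel-Haenszel (10 A/T classes) with Benjamini-Hochberg adjustment, threshold 0.05, in scipy 1.17.1 and statsmodels 0.14.6. The Fisher's exact scan was tested on simulated data, and the matching and the position steps on a few hand-written intervals. Members, lists and tests were chosen with earlier results of these data known. Named peaks follow a rule: the 15 highest-scoring, gaps with 3 or more members, up to 4 genes per list with their best peaks, the extremes of score and TSS distance, and the 5 largest replicate rank ratios. For the EGF, mesoderm and segmentation lists all flanking genes are named, and for GCGCCA the peaks among the 67 highest-scoring members. The alternatives were other TSS distances, annotations, overlaps, list lengths, windows and backgrounds, higher-scoring members and leaving out each replicate. Leaving out a replicate used the matches to the other replicates, and no peaks were called again.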

Additional observations from a re-analysis of the deposited data

How the results depend on the processing

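No paired analysis was possible because the 3 replicates form 1 group. The number of members was 104 in the upper 50% of the optimal list by score (higher-scoring members below). The mean share matched was 71.9% with 50% reciprocal overlap, 38.1% with lists of 0.5 times the length and 94.9% with lists of 2 times the length, and 76.1 to 81.5% with a replicate left out. The share matched in all replicates was 43.3% under reciprocal overlap, 46.3% for summits at most 100 bp apart, 20.9% and 85.8% with the shorter and longer lists, and 56.7 to 69.0% with a replicate left out. The odds ratio for 2 kb was 1.42 against the 5000 highest-scoring non-optimal rows. The following changed direction, none past the threshold on either side: convergent gaps (0.873 to 0.951 with a replicate left out), TAATTA against non-optimal peaks (1.03 in higher-scoring members) and against the left (1.46, and 0.913 to 1.10 with a replicate left out) and right windows (1.12), TAATTG with 100 bp windows (1.07) and against the left (0.886 to 1.07) and right windows (0.767 to 0.943) with a replicate left out, and matching in all 3 replicates against intron peaks (1.20 at 1000 bp from a TSS, 0.850 to 1.16 with a replicate left out). The directions of the 5 arms changed in 7 of 30 alternative values and those of the 7 other motifs in 17 of 56, with none past the threshold, so no direction is given for them; they were first tabulated singly and then only as counts, after the reversals had been seen. Counts of more and less frequent 6-mers were 1 and 0 against the 5000 highest-scoring rows, 0 and 0 in higher-scoring members, 81 and 50 with 100 bp windows, and 0 to 14 and 0 to 2 with a replicate left out. GCGCCA in higher-scoring members had an odds ratio of 3.62 (Fisher's exact test, adjusted p = 0.0986). TAATTA against intron and promoter peaks lost its calls in every subset tried, and the A/T share against intron peaks in all but that without replicate 1, with values in the report. Genes flanking members were 209 by the nearest TSS and 211 for members matched in all 3 replicates. The cause was not tested. The A/T difference from non-optimal peaks and the lower ranks than promoter peaks passed under every alternative run, which for the ranks were the upper 25% of the list and a TSS distance of 1000 bp. For the tests of position and sequence, a subset with a replicate left out held the members matched in both other replicates, 152 to 185 of them. Peaks were not called again, so scores, summits and the optimal list still rest on all 3 replicates. These subsets are therefore a choice by replicate rank and not an analysis free of the replicate left out.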
